A study of Mus musculus with 12 samples.

Results

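The histone genes of the mouse duodenum were examined for their occupancy by RNA polymerase II (Pol II), the enzyme that transcribes messenger RNA genes. A gene was taken as a member when its symbol carries the prefix of a clustered core histone gene or of a linker histone gene and it has a row in both comparison tables deposited by the authors. This gave 32 of 6429 genes. They comprise 3 linker (H1), 9 H2A, 7 H2B, 6 H3 and 7 H4 genes.

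Core histones H2A, H2B, H3 and H4 form the protein spool of the nucleosome, and linker histone H1 binds the DNA between spools. Most of these genes are replication-dependent. They are short, mostly without introns, lie in clusters, and are transcribed in S phase from promoters gathered in the histone locus body, and their transcripts end in a stem-loop in place of a poly(A) tail. In the intestinal lining the dividing cells lie in the crypts, while the villi carry differentiated cells, mostly absorptive enterocytes. H1f0 is the exception among the linker genes here, since it encodes the replication-independent linker histone of differentiated cells, and H2bc1 encodes a histone H2B best known from the testis.

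The labels describe 12 samples of chromatin immunoprecipitation sequencing (ChIP-seq) from duodenal epithelium, with 3 Pol II libraries and 1 input for each of 3 groups. WT villus and WT crypt came from mice that received the oil vehicle. The villus group of genotype Hnf4{alpha}{gamma} DKO came from mice given tamoxifen at 50 mg/kg on 2 consecutive days and killed 1 day after the last dose, and no crypts were taken from them. Here DKO stands for a double knockout of the transcription factors HNF4A and HNF4G, both regulators of enterocyte genes. Epithelium was released with EDTA for 25 min in mutants and 35 min in WT mice, so genotype, tamoxifen and EDTA time cannot be told apart. The Cre driver, the age of the mice and the deleted parts of the genes are not given in the sources used here, and neither is whether each library came from a separate mouse. P-values then measure only the spread between these libraries, which may be technical.

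The tables give each gene a mean signal, in counts divided by the libraries' size factors, and a log2 fold change with its standard error (SE), and no values for single libraries. Group levels printed here were rebuilt from the mean and the fold changes, taking the groups as equal in size, and carry no error of their own. Genes with an adjusted p under 0.05 are those called here. In a bulk sample, fewer cells of a type and less Pol II per cell cannot be told apart.

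In the authors' deposited table, Pol II at the targeted genes was higher in the labelled-DKO group, with a log2 ratio of WT to labelled-DKO villus of -0.54 ± 0.14 (SE; DESeq2 adjusted p 0.000484) at Hnf4a and -1.45 ± 0.22 (7.81e-10) at Hnf4g. The libraries are therefore called labelled-DKO throughout, and every direction between genotypes rests on that label. The enterocyte markers followed their tissue label in the authors' deposited table, with 11 of 11 tested genes higher in WT villus than in crypt and a median of 1.55. The same 11 were higher in WT villus than in labelled-DKO villus, with a median of 2.44 in the authors' deposited table. They include Apob, Apoa4, Slc5a1, Rbp2, Fabp1, Vil1, Lct and Sis, which serve lipid, sugar and vitamin A handling or build the brush border. Of 9 crypt stem cell markers 3 had a row, and Sox9 (-0.68 ± 0.18) and Axin2 (-0.49 ± 0.17) were lower in WT villus than in crypt in the authors' deposited table, while Lgr5, Olfm4 and others had no row. Rnf43 was called between the genotypes, at -0.29 ± 0.12 in the authors' deposited table. For labelled-DKO villus over crypt, formed as described below, Rbp2 (-1.92 ± 0.23), Apoa4 (-1.76 ± 0.30), Apob (-1.50 ± 0.15) and Sox9 (-0.93 ± 0.26) were lower and Fabp1 (0.94 ± 0.26) was higher. No mesenchymal marker of 7 and 3 of 6 immune markers had a row, and the summed rebuilt level of the 3 immune genes was 425 in WT villus, 309 in crypt and 291 in labelled-DKO villus. Of these 3, Cd74, which encodes the invariant chain of antigen presentation, was called in the authors' deposited tables, at 0.72 ± 0.24 for villus over crypt and 1.33 ± 0.24 for WT over labelled DKO. Its own levels were 188 in WT villus, 115 in crypt and 74.7 in labelled-DKO villus. In the same order Coro1a ran the other way, at 50.9, 55 and 61.9, and Cd52 was at 186, 140 and 154. Neither Coro1a nor Cd52 was called, so the sum's order does not hold for each gene. The part of these cell types in the results at histone genes was not tested.

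The promoters of 7 members are shown because they carry the contrasts described below: H1f5, H2ac12 and H4c9 from the first cluster on chromosome 13, H1f4, H2ac6 and H4c3 from the second, and H1f0, which lies alone on chromosome 15. Each line gives the 150 bases before the transcription start, 5′ to 3′ on the gene's own strand, from RefSeq on build GRCm38.p6. Capitals mark the TATA box letters TATAAA, the CCAAT box letters CCAAT, the octamer ATTTGCAT and the H1 box AAACACA, on either strand. The windows are chr13:21780626-21780775 (minus strand), chr13:23622559-23622708 (minus), chr15:79028062-79028211 (plus), chr13:22035644-22035793 (minus), chr13:23683960-23684109 (minus), chr13:23698459-23698608 (minus) and chr13:22041363-22041512 (minus).
H1f5: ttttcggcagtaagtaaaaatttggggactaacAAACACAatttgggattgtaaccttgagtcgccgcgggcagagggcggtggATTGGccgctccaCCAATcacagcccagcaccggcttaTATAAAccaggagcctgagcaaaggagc
H1f4: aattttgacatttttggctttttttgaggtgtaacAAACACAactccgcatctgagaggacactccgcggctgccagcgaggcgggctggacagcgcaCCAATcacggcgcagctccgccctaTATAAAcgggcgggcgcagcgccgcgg
H1f0: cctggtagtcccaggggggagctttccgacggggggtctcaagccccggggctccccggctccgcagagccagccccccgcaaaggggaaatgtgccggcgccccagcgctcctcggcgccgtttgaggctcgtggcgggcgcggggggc
H2ac12: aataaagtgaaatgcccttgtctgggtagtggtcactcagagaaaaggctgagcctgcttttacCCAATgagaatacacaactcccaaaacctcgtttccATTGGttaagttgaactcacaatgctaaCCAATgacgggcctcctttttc
H2ac6: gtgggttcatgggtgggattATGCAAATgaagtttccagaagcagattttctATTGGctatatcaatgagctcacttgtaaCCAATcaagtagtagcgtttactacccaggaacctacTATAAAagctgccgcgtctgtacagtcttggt
H4c3: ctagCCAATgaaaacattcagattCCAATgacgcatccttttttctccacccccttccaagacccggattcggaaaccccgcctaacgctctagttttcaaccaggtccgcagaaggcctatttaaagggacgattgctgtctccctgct
H4c9: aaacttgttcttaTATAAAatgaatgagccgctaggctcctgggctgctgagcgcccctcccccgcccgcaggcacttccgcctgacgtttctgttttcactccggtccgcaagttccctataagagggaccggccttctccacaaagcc

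The promoters of H1f5 and H1f4 have the same layout. Each holds AAACACA, the H1 box known from linker histone promoters, starting 117 and 115 bases before the start, then CCAAT at 53 and 52 bases and TATAAA at 28 and 27 bases. H1f5 has 1 more CCAAT on the other strand, at 66 bases. H1f0 has none of these motifs in the window shown, whose GC content is 76%, against 52% for H1f5 and 58.7% for H1f4.

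RefSeq promoters were matched for 28 of the 32 members, in 29 sequences, and none was matched for H2bc4, H2bc21, H3c1 or H4c14. H2bc6 has 2 of the sequences and is counted with each. The sequences of H2ac18 and H3c14 are from plus-strand placements, while the counting windows of these genes are on the minus strand. The 4 motifs above and CAAAGTCCA, a core of the HNF4 site, were searched on both strands over the 250 bases before the start. CCAAT, the letters bound by the factor NF-Y, was in 22 of 29 member sequences (75.9%) and in 33.8% of all 32851 promoters. It was in 9 of 9 H2A and 6 of 6 H2B sequences, and in 2 of 6 H4 sequences. The octamer ATTTGCAT, known from H2B promoters as the site of OCT factors, was in 6 sequences (20.7%, against 1.6% of all promoters), those of H2ac6, H2ac8, H2ac12, H2ac20, H2bc1 and H2bc6. In H2ac12 it lies outside the bases shown. TATAAA was in 12 sequences (41.4%, against 12.4%) and AAACACA in 3 (10.3%, against 6.25%), those of H1f4, H1f5 and H2bc1. CAAAGTCCA was in none of the 29 and in 0.384% of all promoters. These matches describe letters and are not binding sites. Motifs that share letters at their ends, such as TATAAA and AAACACA, can overlap.

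The first comparison, of WT villus with WT crypt, asks how Pol II is placed along the crypt-villus axis. In the authors' deposited table, 18 of the 32 histone genes had less Pol II in villus than in crypt, 1 had more, and 13 were not called. Over all genes the authors' deposited table called 37.4%, with 18.8% lower and 18.6% higher in villus. The members lower in villus were 56.2% of the 32. Their median log2 fold change was -0.72 in the authors' deposited table, beside -0.04 over all genes. Centring on the median of all genes gave 17 lower and 1 higher among members, where over all genes 1356 (21.1%) were then higher and 951 (14.8%) lower.

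Among genes with a row, the histone genes made up a large share of the crypt-high extreme. By the authors' deposited table, 59 genes, 0.918% of those tested, were called and lower in villus by more than 1 on the log2 scale. Histone genes were 13 of these 59 (22%). They include H3c14 and H3c15, whose gene body windows share 1499 bp. Genes without a row, such as the crypt markers Lgr5 and Olfm4, could not be among the 59. Tested against a log2 change of 0.5, 30 genes (0.467%) were lower in villus, and 4 of them were the histone genes H2ac15, H1f5, H2ac12 and H2bc9.

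**Figure D1:**
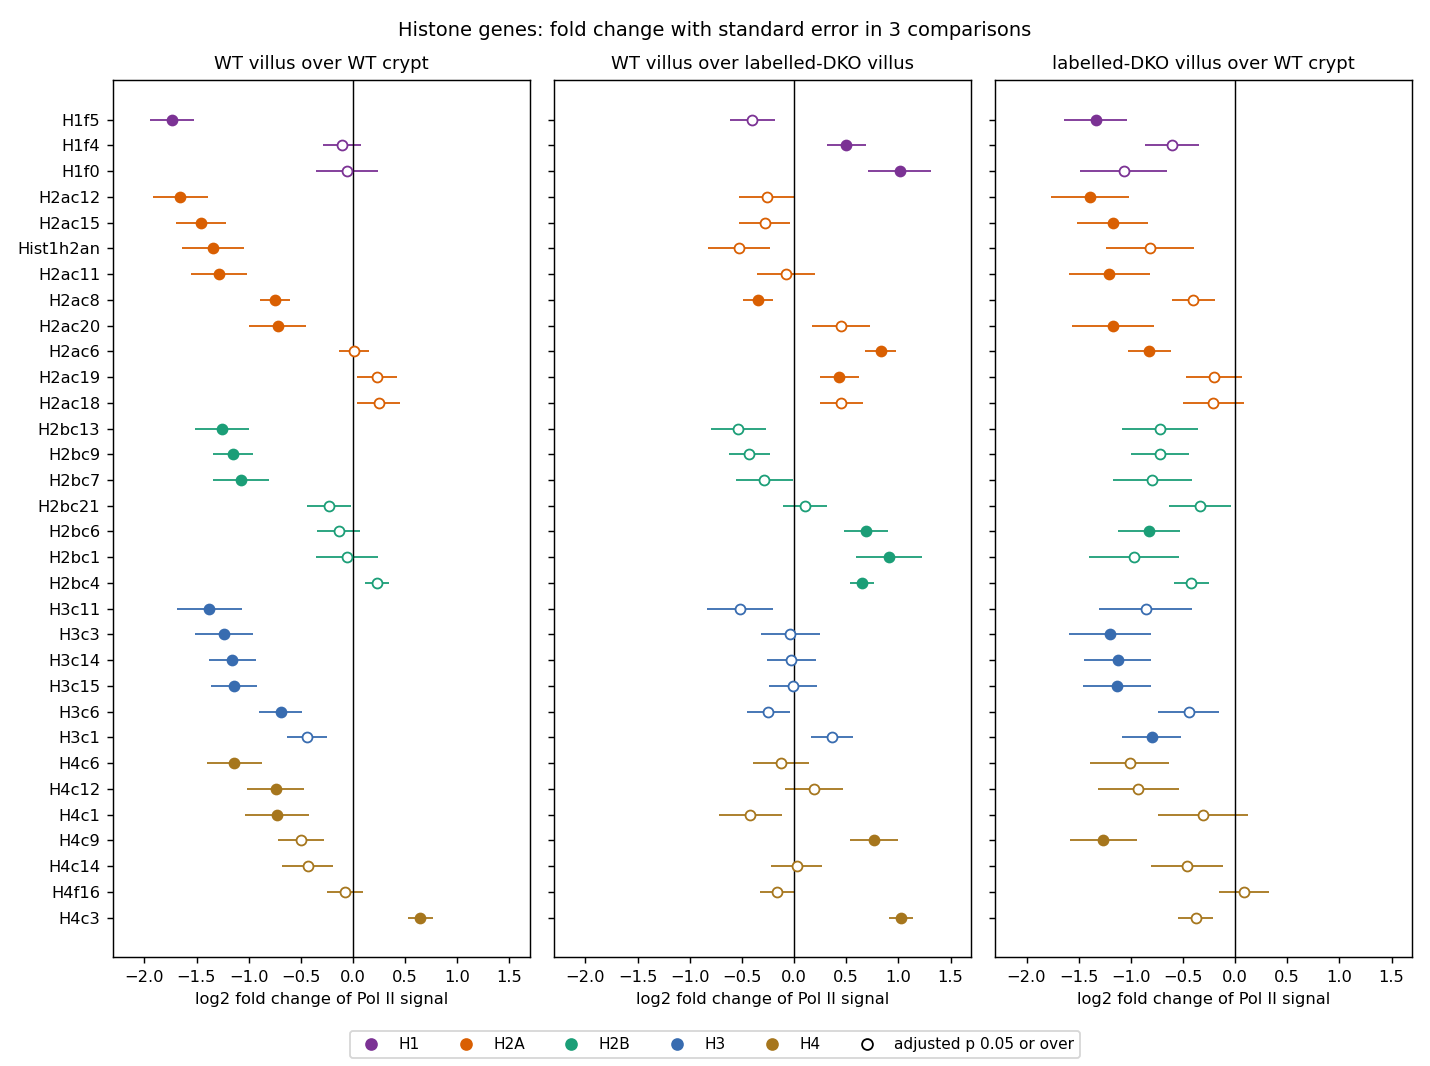
Log2 fold change of Pol II signal (x axis) with its standard error (bars) for the 32 histone genes (rows), coloured by class and ordered within a class by villus over crypt. Filled points are called at an adjusted p under 0.05. In the left panel 18 filled points lie below 0 and 1 (H4c3) above it, in the middle panel 9 lie above 0 and 1 (H2ac8) below it, and in the right panel all 12 lie below 0.

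The 3 linker genes split. H1f5 had a rebuilt level of 72.7 in WT villus, 242 in crypt and 95.9 in labelled-DKO villus, so crypt stood apart from both villus groups. In the authors' deposited table it had the lowest fold change of the 32 members, -1.74 ± 0.21 for villus over crypt (DESeq2 adjusted p 9.68e-15). H1f4, with a promoter of the same layout, was at 402 in WT villus, 432 in crypt and 284 in labelled-DKO villus. Its villus over crypt value in the authors' deposited table was -0.10 ± 0.19 (adjusted p 0.701). H1f0 was at 106, 111 and 52.7 in the same order, and its value in the authors' deposited table was -0.06 ± 0.29 (adjusted p 0.903). For both genes the WT groups differed by less than the SE, and labelled-DKO villus was the lowest group.

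Of 9 H2A genes, 6 fell from crypt to villus and none rose. H2ac12 was at 66.2 in WT villus, 208 in crypt and 79.4 in labelled-DKO villus, and its log2 fold change in the authors' deposited table was -1.65 ± 0.26 (DESeq2 adjusted p 6.64e-09). H2ac15 followed in the authors' deposited table with -1.45 ± 0.24 (2.20e-08), Hist1h2an with -1.34 ± 0.29 (4.18e-05) and H2ac11 with -1.28 ± 0.27 (1.82e-05). The falls of H2ac8 (-0.74 ± 0.14, adjusted p 2.76e-06) and H2ac20 (-0.72 ± 0.28, 0.0268) were smaller in the authors' deposited table. H2ac6 was level between the WT groups, at 257 in villus and 255 in crypt, with 0.01 ± 0.14 in the authors' deposited table. H2ac18 and H2ac19 were not called either, at 0.25 ± 0.21 and 0.23 ± 0.19 in the authors' deposited table.

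Among the 7 H2B genes 3 fell. They are H2bc13 (-1.26 ± 0.26, DESeq2 adjusted p 1.06e-05), H2bc9 (-1.15 ± 0.19, 4.18e-08) and H2bc7 (-1.08 ± 0.27, 0.000348) in the authors' deposited table. The other 4, H2bc21, H2bc6, H2bc1 and H2bc4, ran from -0.23 to 0.23 in the authors' deposited table and were not called. H2bc4 had the highest mean signal of all members, 409, and H2bc1 the lowest, 26.3.

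H3 was the class with the largest share of falls, 5 of 6 genes. Its class median of -1.15 in the authors' deposited table was the lowest of the 5 over all members. That median lies between H3c14 and H3c15, which are nearly the same measurement. With H3c15 and H2ac19 left out, a choice made after seeing the data, it was -1.16 over 5 H3 genes. H2A was lower than H3 among members with a mean signal of at least 100 (-1.34 over 5 genes against -1.24 over 3). The same held among those without promoter window overlap (-1.28 over 3 genes against -0.97 over 4). H3c11 had -1.38 ± 0.31 (DESeq2 adjusted p 8.82e-05), H3c3 -1.24 ± 0.28 (6.08e-05), H3c14 -1.16 ± 0.23 (3.48e-06), H3c15 -1.14 ± 0.22 (3.79e-06) and H3c6 -0.69 ± 0.21 (0.00327) in the authors' deposited table. H3c1 was not called (-0.44 ± 0.19, adjusted p 0.0601, in the authors' deposited table).

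The H4 genes moved in both directions. H4c6 (-1.14 ± 0.27, DESeq2 adjusted p 0.000139), H4c12 (-0.74 ± 0.27, 0.0214) and H4c1 (-0.73 ± 0.30, 0.0464) fell in the authors' deposited table, the last of these losing its call once the fold changes were centred. H4c3 was at 470 in WT villus, 300 in crypt and 231 in labelled-DKO villus. It was the 1 member that rose from crypt to villus, by 0.65 ± 0.12 in the authors' deposited table (5.12e-07). H4c9, H4c14 and H4f16 were not called, at -0.50 ± 0.22, -0.43 ± 0.24 and -0.08 ± 0.17 in the authors' deposited table. All 7 genes encode an H4 protein, so the class name alone did not go with a direction. Class medians in the authors' deposited table were -0.10 for H1, -0.74 for H2A, -0.23 for H2B and -0.50 for H4, and no test was made between classes.

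**Figure D2:**
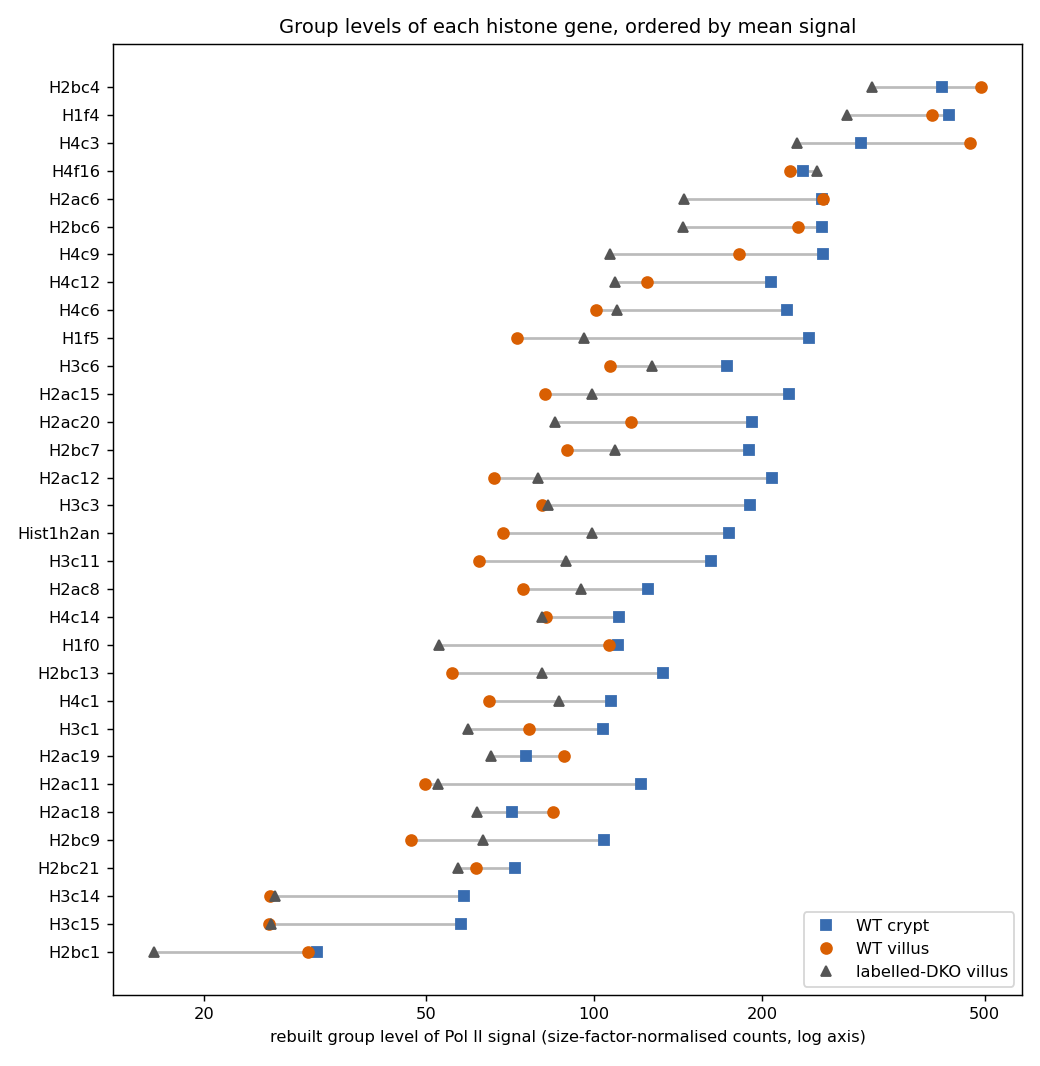
Rebuilt group level of Pol II signal (x axis, size-factor-normalised counts on a log scale) for each histone gene (rows, ordered by mean signal) in WT crypt (squares), WT villus (circles) and labelled-DKO villus (triangles). Crypt is the highest group in 26 genes, and the genes of highest mean signal have WT villus near or above crypt with labelled-DKO villus below both, apart from H4f16.

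The second comparison is of WT villus with labelled-DKO villus. The series was designed to look for HNF4-dependent Pol II recruitment, but the values are given here only as differences between these groups of libraries, since genotype, tamoxifen and EDTA time cannot be told apart. Of 32 histone genes, 9 were higher in WT villus, 1 was lower and 22 were not called in the authors' deposited table. All genes were called at 51.9% in the authors' deposited table, 22.4% higher and 29.5% lower in WT villus. The members higher in WT were 28.1% and the 1 lower was 3.12% of the 32. The members' median was -0.02 in the authors' deposited table, beside -0.08 over all genes. After centring, 1710 (26.6%) of all genes were higher and 1422 (22.1%) lower in WT villus, and 48.7% were called. Centring left 10 members called but exchanged a pair of them, since H2ac8 lost its call at -0.26 and H2ac18 gained one at 0.53.

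H4c3 gave the largest difference, 1.02 ± 0.12 in the authors' deposited table (DESeq2 adjusted p 6.45e-17), a 2.03-fold higher level in WT villus. It was also the 1 member called when tested against a log2 change of 0.5, where 9.91% of all genes were called. With H1f0 it was 1 of 2 members called beyond a log2 fold change of 1, where 8.69% of all genes were. H1f0, the linker gene of differentiated cells, followed with 1.01 ± 0.30 (adjusted p 0.00219) in the authors' deposited table, and H1f4 with 0.50 ± 0.19 (0.0164). H1f5 was on the other side of 0, at -0.40 ± 0.22, and not called in the authors' deposited table (0.111). H4c9, at 182 in WT villus, 257 in crypt and 107 in labelled-DKO villus, had 0.77 ± 0.23 (0.00243) in the authors' deposited table.

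H2ac6 and H2bc4 are transcribed away from each other from starts 240 bp apart. H2ac6 was at 257 in WT villus, 255 in crypt and 145 in labelled-DKO villus, and H2bc4 at 493, 420 and 314. In both genes labelled-DKO villus was the lowest group. Their differences between the genotypes in the authors' deposited table were 0.83 ± 0.15 (DESeq2 adjusted p 1.40e-07) and 0.65 ± 0.12 (2.51e-07). The gene body window of H2ac6 overlaps the promoter window of H2bc4, and counting used no strand option. If body windows were counted, the H2ac6 value may hold signal of the H2bc4 promoter. Windows of the same kind do not overlap between these genes, and which kind was counted is not stated. H2bc6 (0.69 ± 0.21, 0.00323), H2bc1 (0.91 ± 0.31, 0.00929) and H2ac19 (0.43 ± 0.19, 0.0428) were also higher in WT villus in the authors' deposited table.

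No H3 gene was called between the genotypes, and none of the 6 had an unadjusted DESeq2 p under 0.05 in the authors' deposited table. Their values there ran from -0.52 at H3c11 to 0.36 at H3c1, with an SE of 0.20 to 0.32. H2ac8 was the 1 member with more Pol II in labelled-DKO villus, at -0.34 ± 0.14 (adjusted p 0.0360) in the authors' deposited table. Its rebuilt level was 74.6 in WT villus, 125 in crypt and 94.7 in labelled-DKO villus. Class medians in the authors' deposited table were 0.50 for H1, -0.08 for H2A, 0.11 for H2B, -0.03 for H3 and 0.03 for H4.

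Labelled-DKO villus was then compared with WT crypt by subtracting one deposited log2 fold change from the other. The SE was the root of their summed squares, the largest value it can have if library errors are independent. Both comparisons share the WT villus libraries, so this comparison is built from the first pair and is no separate support for either. With a normal p adjusted over all genes, 12 of 32 members were lower in labelled-DKO villus than in crypt and none was higher. Of all genes 13.6% were called, 7.19% lower and 6.41% higher, and the members called lower were 37.5%. At an unadjusted p under 0.05, 23 members differed. An adjusted p under 0.01 left 7 members, with 8.68% of all genes called. Against a log2 change of 0.5 no member was called, with 1.4% of all genes. The larger of the deposited SEs, which is less cautious, called 25 members and 29.4% of all genes. The median was -0.82 for members and 0.003 for all genes. Of the 32 values 31 were negative, the exception being H4f16 at 0.08 ± 0.24.

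H1f5 was again far from 0, at -1.34 ± 0.30 (adjusted p 0.000251). H2ac12 (-1.39 ± 0.38, 0.00323), H4c9 (-1.27 ± 0.32, 0.0014), H2ac11 (-1.21 ± 0.39, 0.0184), H3c3 (-1.20 ± 0.40, 0.0222), H2ac15 (-1.18 ± 0.34, 0.00724) and H2ac20 (-1.17 ± 0.39, 0.026) were also lower in labelled-DKO villus than in crypt. The same held for H3c15 (-1.13 ± 0.32, 0.0058), H3c14 (-1.13 ± 0.33, 0.00658), H2bc6 (-0.83 ± 0.30, 0.0423), H2ac6 (-0.82 ± 0.21, 0.00126) and H3c1 (-0.80 ± 0.28, 0.0332). H4c3, higher in WT villus than in crypt, was not called here, at -0.38 ± 0.17 (0.119). H1f0 (-1.07 ± 0.42, 0.07) and H1f4 (-0.60 ± 0.26, 0.112) were not called. Class medians were -1.07 for H1, -0.82 for H2A, -0.72 for H2B, -0.99 for H3 and -0.46 for H4.

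The 3 comparisons share libraries, so their calls are not independent and no count of genes called in more than 1 of them is read as a result. H1f5, H2ac12 and H4c3 show the forms the values took. H1f5 and H2ac12 were high in crypt with both villus groups low, and H4c3 was high in WT villus with crypt and labelled-DKO villus low. H2bc21, H2ac18, H4c14 and H4f16 were called in none of the 3. Crypt was the highest group in 26 genes, WT villus in 5 and labelled-DKO villus in 1 (H4f16), and crypt was the lowest in 0. Summed over the members, the rebuilt level was 4103 in WT villus, 5621 in crypt and 3384 in labelled-DKO villus. Over all genes the sums were 1.47e+06, 1.36e+06 and 1.46e+06 in the same order. The members' sum counts reads of overlapping windows more than once, as for H3c14 with H3c15 and H2ac18 with H2ac19.

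The members lie in 3 clusters and at 2 single sites, where a gap over 1 Mb separated clusters. Coordinates here are those of the deposited windows, on build mm9 per the submitters' processing notes. The first cluster, on chromosome 13 from 21807751 to 22134918, has 9 members. From crypt to villus 8 of these 9 fell, with a median of -1.34, in the authors' deposited table, beside 18.8% of all genes. H4c9, the 1 not called, was the 1 that was higher in WT villus than in the labelled-DKO one, beside 22.4% of all genes.

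The second cluster, on chromosome 13 from 23635012 to 24026125, has 14 members. By the authors' deposited tables, 7 fell from crypt to villus and 1 rose, beside 18.8% and 18.6% of all genes. In WT villus 6 were higher and 1 lower than in the labelled-DKO one, beside 22.4% and 29.5% of all genes. Its pattern differed along the chromosome. The members H2bc9, H4c6, H3c6, H2ac8 and H2bc7 at one end all fell from crypt to villus. The next 5 in order, H2bc6, H1f4, H2ac6, H2bc4 and H4c3, were all higher in WT villus than in the labelled-DKO one, and none of them fell from crypt to villus. H3c3 and H4c1, which come next, fell from crypt to villus, H3c1 was called in neither, and H2bc1 at the far end was higher in WT villus. This run was seen in the values and not sought by a rule, and it holds the divergent H2ac6 and H2bc4, whose signal may not be fully separate. The gene body windows of its members H2bc6 and H1f4 overlap, that of H2bc6 being 38275 bp long. If body windows were counted, H2bc6 and H1f4 may share reads.

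Inside this cluster 2 other genes had a row. Trim38, a ubiquitin ligase gene, was higher in WT villus than in the labelled-DKO one (0.76 ± 0.15, DESeq2 adjusted p 3.37e-06) and not called for villus over crypt (0.12 ± 0.15, 0.587), both in the authors' deposited tables. Slc17a4, a transporter gene, was not called in either of the authors' deposited tables, at -0.13 ± 0.17 and -0.36 ± 0.17.

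The third cluster, on chromosome 3 from 96024502 to 96067340, has 7 members. By the authors' deposited tables, 3 of these fell from crypt to villus, beside 18.8% of all genes. In WT villus 1 was higher than in the labelled-DKO one, beside 22.4% of all genes. Entries of this cluster overlap. The gene body windows of H3c14 and H3c15 share 1499 bp, and those of H2ac18 and H2ac19 share 1406 bp. The near equal values in each case are thus nearly the same measurement, so the 5 falling H3 genes count 4 separate places. H2ac19 was called between the genotypes (adjusted p 0.0428) and H2ac18 was not (0.0523) in the authors' deposited table, which is no difference between them. H1f0 on chromosome 15 from 78858542 to 78858943 and H4f16 on chromosome 6 from 136752651 to 136753052 stand alone.

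**Figure D3:**
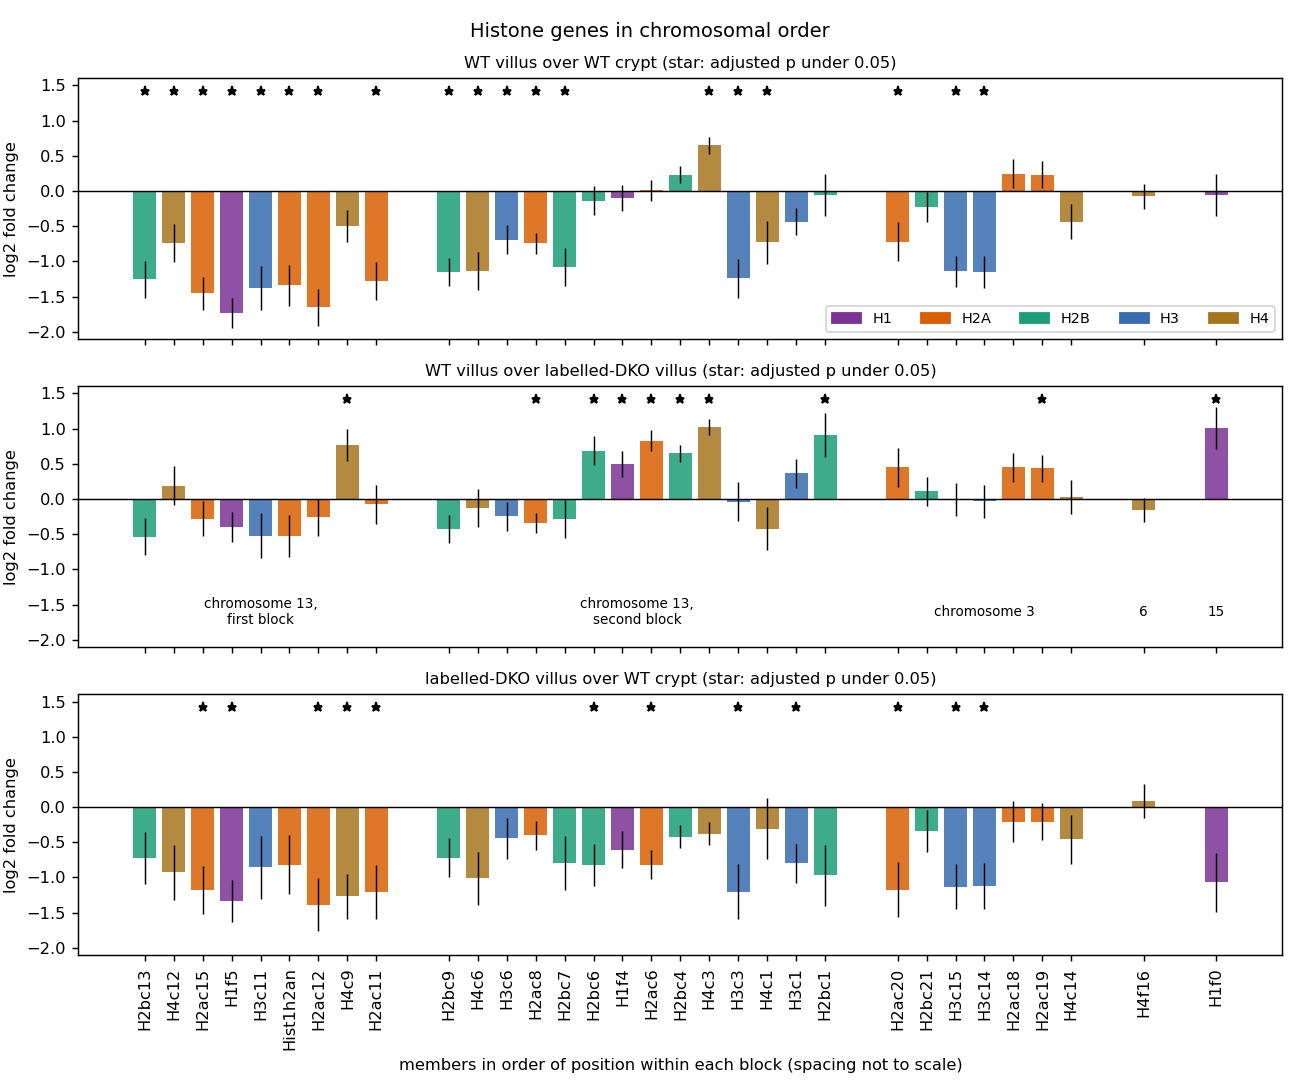
Log2 fold change with its standard error (y axes) for the histone genes in order of position within each cluster (x axis, spacing not to scale), coloured by class, in the 3 comparisons. Stars mark an adjusted p under 0.05. The first cluster falls from crypt to villus in 8 of 9 genes, beside 18.8% of all genes. A run of 5 genes in the second is higher in WT villus than in the labelled-DKO one, beside 22.4% of all genes.

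How these genes were measured bears on which of them have a row. The authors counted read pairs over a promoter window of 402 bp, from 100 bp before to 300 bp after the start, and over a gene body window, per the file headers and coordinates. On the plus strand the body window opens 350 bp after the start. On the minus strand it runs from 350 bp before the start to 500 bp beyond the gene's end, so that all 21190 minus-strand body windows hold their own promoter window, against 0 of 19858 on the plus strand. Of the members, 29 have a body window that holds their promoter window, and H1f0, H2bc4 and H2bc21 do not. Which window underlies the deposited comparisons is not stated, and the count columns carry no names, so promoter and gene body signal of the members are not analysed here.

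**Figure D4:**
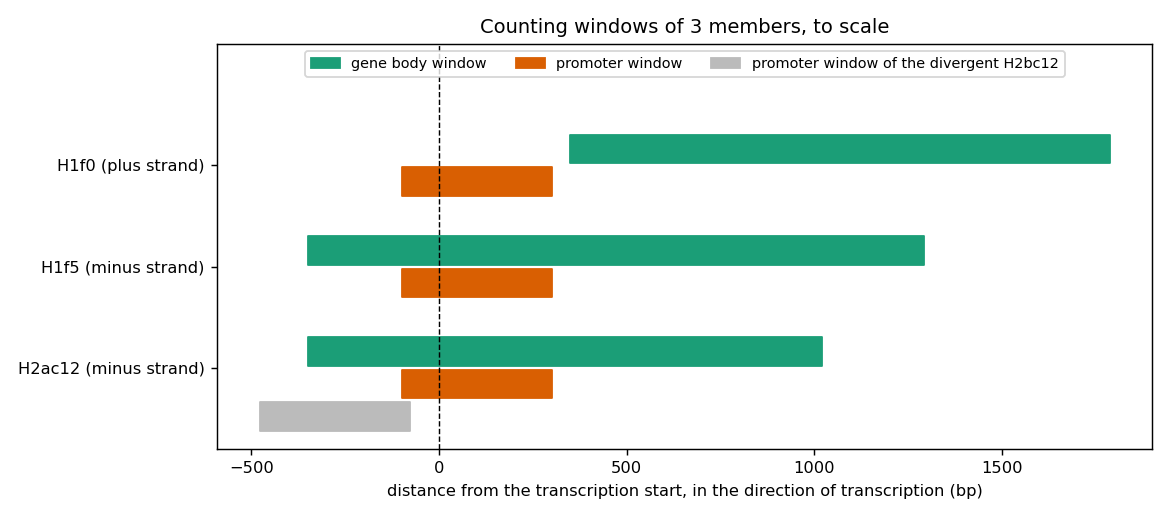
Promoter (orange) and gene body (green) counting windows of H1f0, H1f5 and H2ac12, as distance from the transcription start in bp in the direction of transcription, with the promoter window of the divergent H2bc12 in grey. The body windows of the minus-strand H1f5 and H2ac12 hold their promoter windows, that of H2ac12 also overlaps the window of H2bc12, and that of H1f0 begins 350 bp after the start.

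The same pattern of symbols found 68 histone genes with a promoter window, 36 on the plus and 32 on the minus strand. A gene body window was present for 7 of the 36 and for 32 of the 32. In the comparison tables were 4 of the 36 and 28 of the 32. This counts each gene at its first placement, and H2ac18, placed on both strands, is there a plus-strand gene, whereas its gene body window is on the minus strand. Over all genes, 0 of 2636 without a body window had a row, against 6395 of 22487 with one. Among genes spanning 500 to 1850 bp, 17.9% of those on the minus strand and 0.824% of those on the plus strand had a row. For spans of 1850 to 5000 bp these shares were 37.5% and 42.6%. The 32 members are therefore mostly the minus-strand histone genes, and the plus-strand ones are mostly not measured in the tables.

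**Figure D5:**
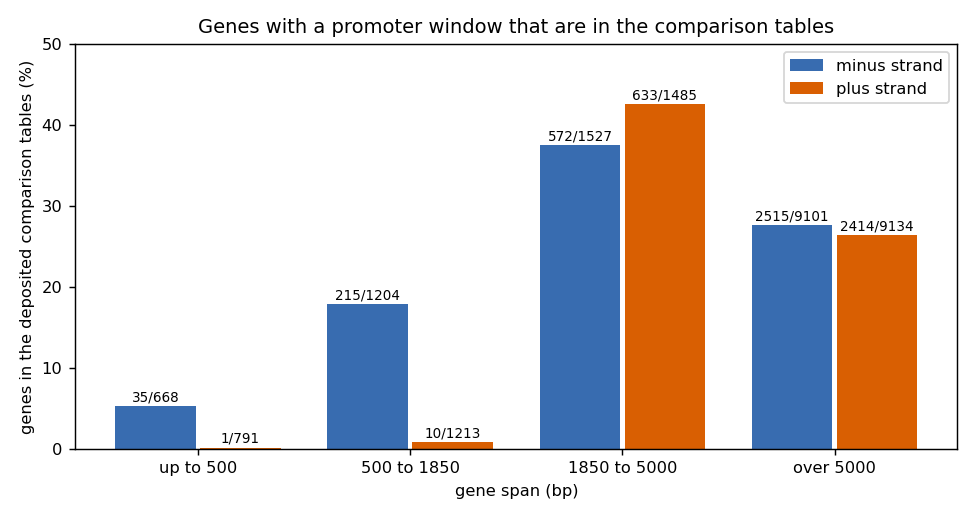
Share of genes with a promoter window that have a row in the deposited comparison tables (y axis, %), by gene span in bp (x axis) and strand (bars). For spans of 500 to 1850 bp the share is 17.9% on the minus strand and 0.824% on the plus strand, while longer genes have like shares on both strands.

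Histone genes often come as divergent H2A and H2B partners. A partner starting within 500 bp in the other direction was found for 12 members, at 164 to 281 bp, and 8 of the 12 have a partner without a row. The promoter windows of 10 members and the body windows of 14 overlap the promoter window of another gene, and signal there cannot be told apart by gene. H2ac12 is such a case, with its start 178 bp from that of H2bc12. H1f5, H1f4, H1f0, H4c3 and H4c9 have no such overlap, though the body windows of H1f4 and H2bc6 overlap each other. In 18 members, H1f4 and H2bc6 among them, the body window overlaps no other promoter window. Of these 18, 9 were called between WT villus and crypt, where 37.4% of all genes were. Between the genotypes 6 were called, beside 51.9% of all genes, and between labelled-DKO villus and crypt 5, beside 13.6%.

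Genes that serve histone production were read beside the members. Of 25 genes for making histone mRNA, 10 had a row. Slbp, which encodes the protein that binds the stem-loop of histone mRNA, was lower in WT villus than in crypt, at -0.26 ± 0.11 (DESeq2 adjusted p 0.0396) in the authors' deposited table. Yy1 (-0.26 ± 0.07, 0.0019), a zinc finger factor, and Cramp1l (-0.40 ± 0.07, 1.95e-08) were lower too, the other 7 were not called, and the median was -0.08 in the authors' deposited table. Between the genotypes Srrt, an RNA processing factor bound to the cap complex, was higher in labelled-DKO villus (-1.13 ± 0.25, 2.79e-05) in the authors' deposited table, as were Yy1 (-0.44 ± 0.07, 2.87e-09) and Cramp1l (-0.17 ± 0.06, 0.0204). Hinfp, a zinc finger activator of H4 genes, was higher in WT villus (0.38 ± 0.13, 0.00681), and the list's median was -0.17 in the authors' deposited table. Over all genes 18.8% were lower in WT villus than in crypt, and 51.9% were called between the genotypes. Npat, the coactivator of the histone locus body, had no row. Between labelled-DKO villus and crypt the difference of the deposited values called 0 of 10, with 2 at an unadjusted p under 0.05. That comparison called 13.6% of all genes.

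Of 24 histone chaperone and deposition genes, 9 had a row. Lower in WT villus than in crypt in the authors' deposited table were 4, namely Hjurp (-0.30 ± 0.04, DESeq2 adjusted p 6.23e-11), the chaperone of the centromeric histone, Nap1l4 (-0.55 ± 0.09, 3.96e-09), a chaperone of H2A and H2B, Asf1a (-0.49 ± 0.13, 0.00117), a chaperone of H3 and H4, and Srcap (-0.25 ± 0.10, 0.041), which exchanges in H2A.Z. Nap1l4 (-0.51 ± 0.09), Srcap (-0.38 ± 0.10) and Asf1a (-0.30 ± 0.13) were also higher in the labelled-DKO than the WT villus in the authors' deposited table, while Hjurp (0.63 ± 0.04) and Tonsl (0.33 ± 0.14) were lower. Over all genes 18.8% were lower in WT villus than in crypt. Between the genotypes 51.9% of all genes were called, so 5 of 9 called there is near the background. The list's medians were -0.21 and 0.03 in the authors' deposited tables. Hjurp was the 1 called between labelled-DKO villus and crypt, at -0.93 ± 0.06, where 13.6% of all genes were called.

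H3f3b, which encodes the replication-independent histone H3.3, ran opposite to most H3 members. It was at 832 in WT villus, 499 in crypt and 547 in labelled-DKO villus, and the authors' deposited tables gave 0.74 ± 0.18 (DESeq2 adjusted p 0.00026) for villus over crypt and 0.61 ± 0.18 (0.00209) for WT over labelled DKO. H3f3a, the second H3.3 gene, was called in neither of the authors' deposited tables, at 0.15 ± 0.12 and -0.05 ± 0.11. These are the 2 of 10 variant histone genes outside the symbol rule that had a row.

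Of 20 S phase and proliferation genes, 6 had a row. Pcna, the replication clamp, was at 59.9 in WT villus, 115 in crypt and 92.1 in labelled-DKO villus, and Mcm7, a subunit of the replicative helicase, at 62.3, 105 and 90.3. Both were lower in WT villus than in crypt in the authors' deposited table, at -0.95 ± 0.20 (DESeq2 adjusted p 2.77e-05) and -0.76 ± 0.11 (1.17e-10). Both were also higher in the labelled-DKO than the WT villus in the authors' deposited table, at -0.62 ± 0.20 (0.00568) and -0.54 ± 0.11 (4.1e-06), as was the replication licensing gene Cdc6 (-0.45 ± 0.15, 0.0056). Cdt1, Gins2 and Pold1 were not called. Over all genes 18.8% were lower in WT villus than in crypt. Between the genotypes 51.9% of all genes were called, 29.5% of them all being higher in labelled-DKO villus. The 3 of 6 called between the genotypes are thus near the background of called genes. Between labelled-DKO villus and crypt none of the 6 was called by the difference of the deposited values, and none had an unadjusted p under 0.05. Of all genes 13.6% were called there, so 0 of 6 is near the background.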

How the data were processed

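Pol II ChIP-seq was measured in 9 libraries, with 3 inputs. Per the submitters' processing notes, reads were aligned to mm9 with Bowtie2 2.2.6, and SAMtools 0.1.19, Picard, deepTools 2.4.2, Subread 2.03 and DESeq2 1.36.0 were used. Per the file headers, the authors counted read pairs with featureCounts 2.0.3 (mapping quality at least 30, duplicates ignored, every overlapped window, no strand option). These count tables do not name their columns, so 18 columns of per-library counts were not used. Library depth was not analysed here, and the planned edgeR tests of windows were not run.

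The authors deposited 2 tables in DESeq2 format. Their mean signal (counts over size factors), log2 fold change and SE, Wald score, p-value and adjusted p-value were used as deposited. The mean was identical in both tables, and the adjusted p-values equalled a Benjamini-Hochberg adjustment over 6429 genes to within 3.76e-07. Whether the authors shrank the fold changes is not stated, and the rebuilt levels take them as unshrunken. Signs follow the tables' names. A fit of the difference in squared SE on the inverse rebuilt levels took up 68.7% of the sum of squares with the signs as named, 40.4% with villus over crypt reversed and 0 with the genotypes reversed. The slope of this fit was not allowed below 0. The value of 0 is that bound and gives no size to the misfit.

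The comparison of labelled-DKO villus with crypt was computed with Python 3.11.15, pandas 2.3.3 and scipy 1.17.1. Members and lists were chosen with earlier results of these data known. Every member called in at least 1 comparison is named with values. List genes with an adjusted p under 0.05 are named (at most 6 per list and comparison), the enterocyte markers of the deposited comparisons with their list's medians in place of single values.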

Additional observations from a re-analysis of the deposited data

How the results depend on the processing

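The count of histone genes called between villus and crypt (19) went to 4 when tested against a log2 change of 0.5, to 12 of 18 with a mean signal of at least 100, to 12 of 22 whose promoter window overlaps no other, and to 9 of 18 whose gene body window overlaps no other promoter window. Between the genotypes the count (10) went to 2 beyond a log2 fold change of 1, to 1 against 0.5, to 6 with a signal of at least 100 and to 6 without body window overlap. Between labelled-DKO villus and crypt the count (12) went to 7 at an adjusted p under 0.01, to 0 against 0.5 (normal test on the DESeq2 values, with 23 at an unadjusted p under 0.05 against no change), to 25 with the larger of the 2 tables' SEs, to 7 without promoter overlap and to 5 without body overlap. The shares of all genes called changed with these rules too. For villus over crypt they were 37.4% and, against 0.5, 3.92%, beside 59.4% and 12.5% of members. Between the genotypes they were 51.9%, 8.69% beyond 1 and 9.91% against 0.5. For labelled-DKO villus over crypt they were 13.6%, 8.68% at 0.01, 1.4% against 0.5 and 29.4% with the larger SEs. Counts after restricting the members fall partly because fewer genes are tested. Otherwise the cause was not tested.

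Class medians moved with a signal of at least 100 to -0.92 (H1) and -1.34 (H2A) for villus over crypt, to 0.0501 (H1) and 0.65 (H2B) for WT over labelled DKO, and to -1.17 (H2A) and -0.93 (H4) for labelled DKO over crypt. Without promoter overlap H2A had -1.28 for villus over crypt and H2B had 0.65 for WT over labelled DKO. Without body overlap, an alternative chosen after seeing the data, H2B had 0.38 for WT over labelled DKO. With H3c15 and H2ac19 left out, also chosen after seeing the data, H2A had -1.01 for villus over crypt. Centring on the median of all genes turned the sign of 4 uncalled genes between the genotypes, to 0.045 for H3c3, 0.0043 for H2ac11, 0.053 for H3c14 and 0.071 for H3c15. Of the recomputed values of single genes, 332 stayed in the same direction on the same side of the threshold, 66 no longer passed it, 14 newly passed it and these 4 changed sign.

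No paired analysis was possible because the count columns carry no names and the deposited tables hold no values per library. For the same reason a comparison of DESeq2 with edgeR, a filter on low counts, leaving out each replicate and the replicate block were not run. The median SE for villus over crypt was 0.22 for the histone genes and 0.14 for all genes, and the cause was not tested.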

Other observations

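The calls were also read by signal. The split at a mean signal of 200 was chosen after the values were seen. The 6 members above it are H2bc4, H1f4, H4c3, H4f16, H2ac6 and H2bc6. Mean signal is not divided by window length, and the gene body windows of H2bc6 and H2bc4 are 38275 and 7432 bp long. The body window of H2ac6 overlaps the promoter window of H2bc4, and the body windows of H1f4 and H2bc6 overlap. The 6 members may thus not be fully separate measurements. In the authors' deposited tables, 0 of these 6 fell from crypt to villus and 1 rose, and 5 were higher in WT villus than in the labelled-DKO one. Of all genes, 18.8% fell and 18.6% rose from crypt to villus. Between the genotypes, 22.4% of all genes were higher and 29.5% lower in WT villus. Of the 26 members below it, 18 fell from crypt to villus, 4 were higher and 1 was lower in WT villus than in the labelled-DKO one in the authors' deposited tables. With a split at the median signal of the members, 9 of 16 in each set were lower in villus than in crypt. The sets were not tested against each other.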
